A study of Mus musculus with 9 samples.

Results

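The genes described here encode the glucose carriers, the enzymes of glycolysis, the proteins that make and export lactate or admit pyruvate to mitochondria, and the regulators of the hypoxia response, measured in regulatory T cells (Tregs) of the mouse gut. They were 32 named genes, chosen by function and matched by symbol to array features that the platform annotation pairs with exactly 1 gene, taking the brightest such feature per gene. Of the 32, 28 had a feature of their own and 26 were bright enough to be tested, among 12792 genes tested on the arrays. Gpi1, Eno1 and Mpc2 had no feature annotated with that gene alone, and Aldoa lay only on a feature shared with its testis paralogue, so these 4 are not analysed here. Pfkm and Bnip3 were measured and were too dim for the test.

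The study compared Tregs of 3 groups of C57BL/6 mice: wild type (WT), Y3 and Y3/CD103-/-, with 3 arrays each. What Y3 is goes undescribed in the labels; because the series is titled after IL-2Rβ and CD103, Y3 was read as an alteration of the IL-2 receptor's β chain. The Y3/CD103-/- mice carry Y3 and also lack CD103, the integrin αE chain that binds E-cadherin of the epithelium, and no group lacks CD103 alone. In all 3 groups the cells came from the lamina propria of small and large intestine and were sorted by a red fluorescent reporter tied to Foxp3, which all groups therefore carry. From the labels one learns neither the age of the mice, nor how many mice an array represents, nor how Y3 was introduced; p-values therefore measure the spread between these arrays only, which may be technical.

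Glycolysis splits glucose into pyruvate. Pyruvate then becomes lactate, which leaves the cell, or enters mitochondria through the pyruvate carrier and is oxidised by pyruvate dehydrogenase, which pyruvate dehydrogenase kinases switch off. HIF-1α, encoded by Hif1a, is hydroxylated by the EGLN prolyl hydroxylases when oxygen is present and is then marked for degradation by VHL; when oxygen is short it accumulates and raises transcription of glycolytic genes, with MYC as another driver of the same enzymes. In T cells, growth factor signals such as IL-2 act on this pathway through PI3K, AKT and mTORC1. Tregs are known to rely less on glycolysis than effector T cells do, and HIF-1α protein is controlled mostly after transcription, which RNA arrays do not measure.

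HIF binds a short core, ACGTG or GCGTG, and 3 promoters are shown to let the reader see it. Pdk1 had the largest difference here, on 1 of its 2 features. Hk2 had a small unadjusted p, and Ldha is a textbook HIF target. The sequences are RefSeq's for GRCm38.p6, read 5′ to 3′ on the gene's strand, and cover the 250 bases before the start that RefSeq annotates; Pdk1 and Ldha have 2 annotated windows each, and the one with more matches is shown. Capitals mark the core on either strand, so CACGT and CACGC are its reverse complements. Pdk1 lies at chr2:71872974-71873223 (plus strand), Hk2 at chr6:82774455-82774704 (minus strand) and Ldha at chr7:46845554-46845803 (plus strand).
Pdk1: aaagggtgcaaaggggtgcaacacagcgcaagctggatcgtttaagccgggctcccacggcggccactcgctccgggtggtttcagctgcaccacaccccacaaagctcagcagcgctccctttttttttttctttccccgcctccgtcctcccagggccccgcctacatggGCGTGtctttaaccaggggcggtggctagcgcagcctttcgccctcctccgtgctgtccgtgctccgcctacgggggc
Hk2: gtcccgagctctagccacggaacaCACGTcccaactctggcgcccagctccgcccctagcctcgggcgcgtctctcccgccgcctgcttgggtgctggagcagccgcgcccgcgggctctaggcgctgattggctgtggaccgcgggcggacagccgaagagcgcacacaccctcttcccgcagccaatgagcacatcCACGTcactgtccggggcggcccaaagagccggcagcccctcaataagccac
Ldha: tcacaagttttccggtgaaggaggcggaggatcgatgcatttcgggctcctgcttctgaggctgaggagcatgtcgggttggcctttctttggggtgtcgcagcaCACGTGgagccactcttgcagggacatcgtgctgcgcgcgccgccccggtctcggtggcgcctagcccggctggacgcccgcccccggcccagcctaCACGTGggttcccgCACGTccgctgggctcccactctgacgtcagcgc
Pdk1 holds 1 core in this stretch, 78 bases before the start, and another that spans the start itself. Hk2 holds 2, at 226 and 52 bases before the start. Ldha holds 5, among which both copies of the palindrome CACGTG count as 2 each because the core matches on either strand; CACGTG is also the E-box that MYC binds. RefSeq windows of 300 bases (250 before to 50 after the start) were matched for 30 of the 32 genes, all but Slc2a3 and Myc. Of their 44 windows, 35 held the core (79.5%), against 43.8% of all 32851 windows and 49.3% of those of protein-coding genes. The windows of these genes were also richer in G and C, with a median of 63.5% against 56.3% for protein-coding genes, and what that difference does to the share was not tested. CACGTG was in 6 of the 44 windows (13.6%) and in 7.2% of all windows. A match is only letters in a window; whether HIF or MYC binds there was not measured.

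The values are log2 signals, 1 per feature and array; features of different genes differ in their probes, so levels are compared between arrays and never between genes. Where 3 values or means of a gene follow each other they are in the order of arrays 1 to 3, or of WT, Y3 and Y3/CD103-/-. A gene was said to rise or fall at an adjusted p under 0.05 (limma, 2-sided, Benjamini-Hochberg adjustment over the 12792 genes). The 3 comparisons share arrays: Y3 and Y3/CD103-/- were set against the same WT arrays, and the comparison of Y3/CD103-/- with Y3 reuses both. The arrays were alike in median signal, 3.15 to 3.23, while Y3 arrays 1 and 3 had a wider spread of signals than the others (SD over features 1.87 and 1.88, against 1.70 to 1.77). These 2 arrays were also the most alike of any pair within a group, with a correlation of 0.9793 across features against 0.9167 to 0.956 for the other pairs, and the labels leave unsaid whether they are separate animals. Averaged as 1 sample, they left 0 calls in the list, medians of 0.18, 0.01 and -0.07, and 12, 62 and 1 calls over all genes in place of 101, 107 and 1. Foxp3, which defines the cells, had group means of 9.38 (WT), 9.52 (Y3) and 9.55 (Y3/CD103-/-). The mean of 6 Treg and T cell markers lay between 9.16 and 9.31 on all 9 arrays. That mean covers differences in opposite directions. Ikzf2 averaged 9.05, 9.40 and 9.43 in the order WT, Y3 and Y3/CD103-/-, and Cd4 8.11, 8.31 and 8.32. Il2ra averaged 8.15, 7.50 and 7.28, Cd3e 10.55, 10.43 and 10.26, and Ctla4 10.41, 10.32 and 10.48.

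None of the 26 tested genes of the list rose or fell in any comparison. In Y3 against WT 0 of the 26 genes passed, where 0.790% of all genes did (101 genes). In Y3/CD103-/- against WT 0 of 26 passed, where 0.836% of all genes did (107 genes), and in Y3/CD103-/- against Y3 0 of 26, where 0.00782% did (1 gene). With background shares this low, a count of 0 in 26 is near the background and sets these genes apart from no others. The smallest adjusted p among the 26 was 0.266, 0.155 and 0.308 in that order (limma). An unadjusted p under 0.05 was reached by 1 of 26 genes in Y3 (17.0% of all genes), by 3 of 26 in Y3/CD103-/- against WT (13.3%) and by 1 of 26 in Y3/CD103-/- against Y3 (9.90%).

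The intervals say more than the counts. The 95% interval of the log2 difference stayed within 2-fold in either direction for 25 of the 26 genes in Y3 against WT, all but Slc16a1. It did so for 24 in Y3/CD103-/- against WT, all but Pdk1 and Slc16a1, and for 23 in Y3/CD103-/- against Y3, all but Ldhb, Pdk1 and Pfkl. Over all genes tested the same held for 84%, 86% and 88.5%. The distance from a difference to either end of its interval ran from 0.30 log2 for Hif1a, the gene with the least spread between replicates, to 0.72 for Slc16a1. These intervals are unadjusted; Pdk1, Hk2 and Pkm in Y3/CD103-/- against WT had intervals that left out 0 and still did not pass after adjustment.

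**Figure D1:**
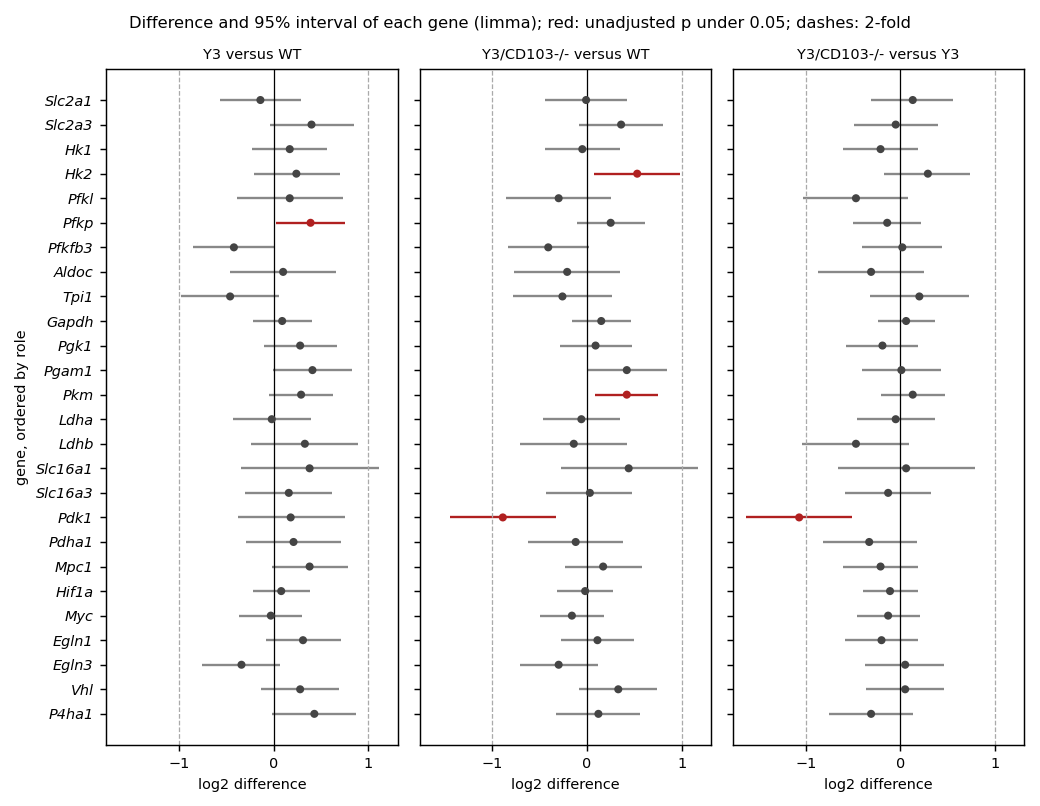
Log2 difference (point) and 95% interval (line) of the 26 tested genes in the 3 comparisons, from limma over 9 arrays; the dashed lines mark 2-fold and red marks an unadjusted p under 0.05. Most intervals include 0 and lie inside the dashed lines. Pdk1, shown by its brighter feature only, stands farthest from 0, at -0.89 and -1.07 in the comparisons of Y3/CD103-/-. Under another scaling the points of Aldoc, Gapdh, Hif1a and Slc16a3 change side in Y3 against WT. In Y3/CD103-/- against Y3 those of Hif1a, Ldha, Myc, Pfkp, Slc16a3 and Slc2a3 do so.

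As a list, the genes had medians close to those of all genes tested. In Y3 the median log2 difference of the 26 genes was 0.20, with 20 higher and 6 lower, against a median of 0.15 over all genes, of which 70.5% were higher. Centring each array on the median of the tested genes moved the median of all genes to -0.02 and that of the 26 genes to 0.03, with 15 higher and 11 lower; quantile normalization gave 0.04 and 0.06, with 20 higher and 6 lower. In Y3/CD103-/- the median was 0.01 against 0.04 over all genes, with 13 higher and 13 lower, and 55.1% of all genes higher. In Y3/CD103-/- against Y3 it was -0.12 against -0.10, with 10 higher and 16 lower, and 33.8% of all genes higher; after centring it was 0.03 against 0.05, with 16 higher and 10 lower. Sides that change with the scaling were those of Aldoc, Gapdh, Hif1a and Slc16a3 in Y3 against WT, of 0 genes in Y3/CD103-/- against WT, and of Hif1a, Ldha, Myc, Pfkp, Slc16a3 and Slc2a3 in Y3/CD103-/- against Y3.

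Single arrays moved the list's medians. The mean log2 signal of the genes was 5.85, 5.54 and 5.77 on Y3 arrays 1, 2 and 3, where the WT group had 5.55, 5.63 and 5.53 and the Y3/CD103-/- group 5.49, 5.62 and 5.66. Y3 array 2 was thus low beside the other Y3 arrays only, and Y3 arrays 1 and 3 were the highest of all 9. Y3 array 2 was the lowest of the 3 Y3 arrays for 20 of the 26 genes, where it was lowest for 55.8% of all genes, and Y3 array 1 was the highest for 18, where it was highest for 35.2% of all genes. Without Y3 array 2 the median difference of the 26 genes in Y3 against WT was 0.32 (0.19 over all genes), and without Y3 array 1 it was 0.10 (0.13 over all genes). In the Y3/CD103-/- group array 1 was the lowest for 13 of the 26 genes, against 40.8% of all genes. The list's median difference of Y3/CD103-/- from Y3 was -0.06 without Y3 array 1 or without Y3 array 3 and -0.05 without Y3/CD103-/- array 1. In the comparison of Y3/CD103-/- with WT it was -0.05 without WT array 1, -0.02 without Y3/CD103-/- array 3 and 0.10 without WT array 2, so its side of 0 rested on single arrays.

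**Figure D2:**
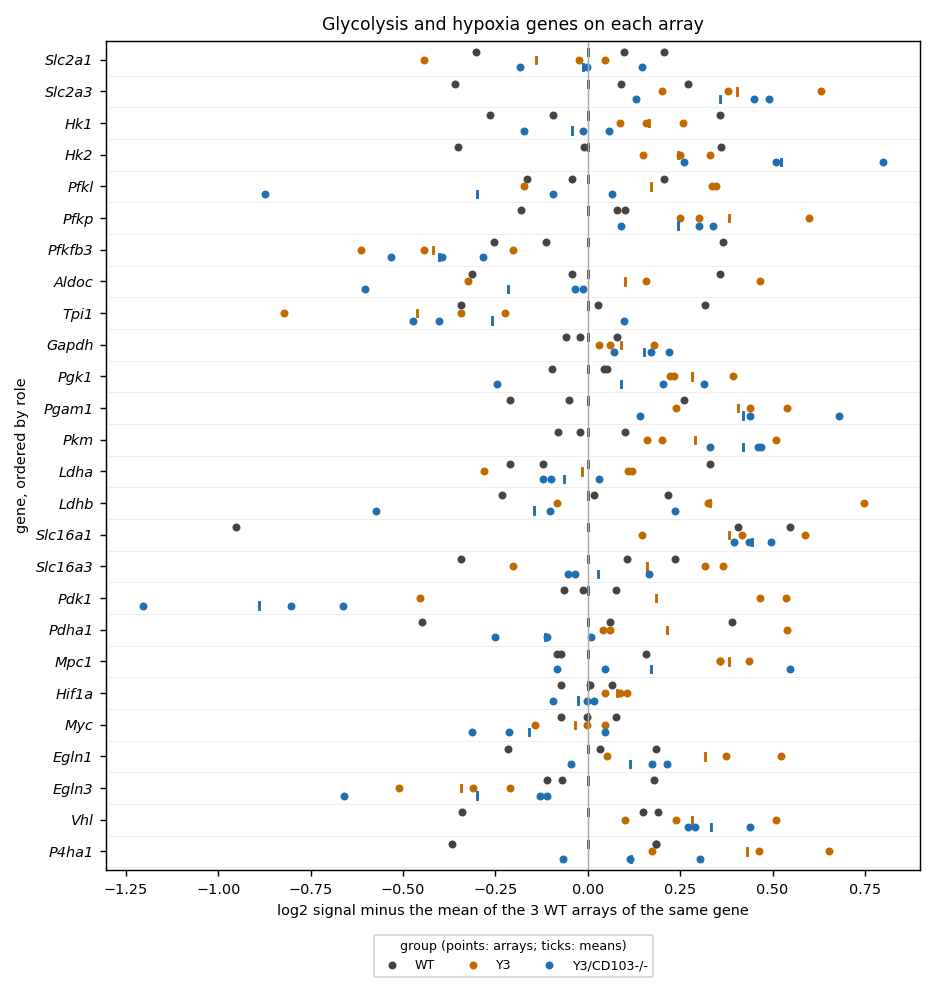
Log2 signal of the 26 tested genes on each of the 9 arrays, as the distance from the mean of the 3 WT arrays of the same gene; points are arrays, short ticks are group means, and genes are ordered by role. The 3 groups interleave for most genes, the Y3/CD103-/- points of Pdk1 (3.62 to 4.16) all lie left of the WT points (4.76 to 4.90), and WT array 3 stands alone at the left for Slc16a1.

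Both glucose carriers kept overlapping groups. Slc2a1, the broadly expressed carrier GLUT1 that activated T cells place on their surface, read 6.52, 7.03 and 6.92 on arrays 1, 2 and 3 of the WT group, 6.87, 6.38 and 6.80 on those of Y3, and 6.97, 6.64 and 6.82 on the Y3/CD103-/- arrays. The lowest and the highest of the 9 values were thus a Y3 and a WT array. Y3 differed from WT by -0.14 (95% interval -0.57 to 0.29, adjusted p = 0.747) and Y3/CD103-/- by -0.01 (-0.44 to 0.42, adjusted p = 0.987). A dimmer feature of Slc2a1 differed by -0.07 and -0.03. Slc2a3, the high-affinity carrier GLUT3, had a WT mean of 4.86 ± 0.33 (SD, n = 3), a Y3 mean of 5.26 ± 0.21 and a Y3/CD103-/- mean of 5.22 ± 0.20; its difference of 0.40 in Y3 ran from -0.04 to 0.85 (adjusted p = 0.333).

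Of the upper part of the pathway, from glucose to triose phosphate, 7 of 10 genes were tested and 0 passed. Hk2, the inducible hexokinase that traps glucose in the cell, read 3.91, 4.25 and 4.62 in WT, 4.59, 4.51 and 4.41 in Y3, and 5.06, 4.77 and 4.52 in Y3/CD103-/-. The Y3/CD103-/- arrays held the 2 highest values, while their lowest lay below WT array 3, so the groups overlapped. The difference of Y3/CD103-/- from WT was 0.53 (95% interval 0.07 to 0.98, unadjusted p = 0.0271 and adjusted p = 0.295 in limma), and it ran from 0.35 to 0.71 when each array was left out in turn. Hk1, the constitutive hexokinase, averaged 4.58, 4.75 and 4.54, and all 3 Y3/CD103-/- arrays lay below all 3 Y3 arrays.

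Phosphofructokinase commits sugar to glycolysis, and its 3 subunit genes gave different values. Pfkp, the platelet-type subunit, read 6.63, 6.61 and 6.35 in WT, 6.83, 6.78 and 7.13 in Y3, and 6.83, 6.62 and 6.87 in Y3/CD103-/-. Every Y3 array lay above every WT array, and the Y3/CD103-/- arrays overlapped both. Pfkp was the gene with an unadjusted p under 0.05 in Y3, with a difference of 0.39 (95% interval 0.02 to 0.75, unadjusted p = 0.0384 and adjusted p = 0.266 in limma) that was 0.23 after quantile normalization and 0.22 after centring. Pfkl, the liver-type subunit, averaged 4.37 ± 0.19, 4.54 ± 0.30 and 4.07 ± 0.50 (SD, n = 3) in WT, Y3 and Y3/CD103-/-, the last mean holding a single low array at 3.50. Pfkm, the muscle-type subunit, read 2.50, 2.28 and 2.96 in WT, 2.87, 2.83 and 3.08 in Y3, and 2.49, 2.19 and 2.00 in Y3/CD103-/-, all below the median of their array and outside the test.

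Pfkfb3 makes fructose 2,6-bisphosphate, the activator of phosphofructokinase. Its means were 4.66 ± 0.33 (WT), 4.24 ± 0.20 (Y3) and 4.26 ± 0.13 (Y3/CD103-/-; SD, n = 3 each); all 3 Y3/CD103-/- arrays lay below all WT arrays, and the difference of -0.41 did not pass (interval -0.83 to 0.02, adjusted p = 0.403). The triose phosphate isomerase gene Tpi1 averaged 6.04, 5.58 and 5.78, with a difference of -0.46 in Y3 (-0.98 to 0.06, adjusted p = 0.340). The brain-type aldolase gene Aldoc averaged 3.56, 3.66 and 3.35, close to the median of the arrays. Its signal failed a stricter brightness filter, as did those of Ldha and Vhl.

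The lower part of the pathway, which yields ATP and pyruvate, had higher group means in both mutant groups, and 0 genes passed. The 4 tested genes differed from WT by 0.09 to 0.41 in Y3 (median 0.29) and by 0.09 to 0.42 in Y3/CD103-/- (median 0.28), against 0.15 and 0.04 over all genes, but the size in Y3 moved with the scaling: the median there was 0.19 after quantile normalization (0.04 over all genes) and 0.12 after centring (-0.02). After centring Gapdh stood at -0.08 in Y3, Pgk1 and Pkm at 0.12 each and Pgam1 at 0.24, while the median in Y3/CD103-/- was 0.27. Pkm, which encodes pyruvate kinase M, read 8.33, 8.21 and 8.15 in WT, 8.74, 8.43 and 8.39 in Y3, and 8.56, 8.69 and 8.70 in Y3/CD103-/-. Every array of both mutant groups lay above every WT array. Y3 exceeded WT by 0.29 (interval -0.05 to 0.63, adjusted p = 0.365) and Y3/CD103-/- exceeded it by 0.42 (0.08 to 0.75, unadjusted p = 0.0209, adjusted p = 0.271). Which splice forms of the gene the single Pkm feature covers is not stated in the labels.

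Gapdh, the dehydrogenase often used as a reference gene, read 9.61, 9.75 and 9.65 in WT, 9.85, 9.73 and 9.70 in Y3, and 9.89, 9.84 and 9.74 in Y3/CD103-/-. The groups overlapped, and its differences were 0.09 in Y3 (-0.22 to 0.40), below 0 after centring, and 0.15 in Y3/CD103-/- (-0.16 to 0.46). Another bright Gapdh feature gave 0.10 and 0.14. A much dimmer one, with a mean of 4.06, gave -0.31 (-0.81 to 0.20) and -0.14 (-0.65 to 0.37). A further 8 features are shared with other genes and were left out. Pgk1, the phosphoglycerate kinase, averaged 7.15 ± 0.08, 7.43 ± 0.10 and 7.24 ± 0.30 (SD, n = 3), with every Y3 array above every WT array and a difference of 0.28 (-0.10 to 0.67, adjusted p = 0.423). Pgam1, the phosphoglycerate mutase, averaged 5.21, 5.62 and 5.63, and its differences from WT were 0.41 (-0.01 to 0.83) and 0.42 (0 to 0.84). A dimmer Pgam1 feature gave 0.35 (-0.18 to 0.88) and 0.61 (0.08 to 1.14, adjusted p = 0.299 in limma).

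Lactate formation and export gave no call in 4 genes. Ldha, the lactate dehydrogenase subunit that favours lactate, read 3.63, 4.17 and 3.72 in WT, 3.96, 3.56 and 3.95 in Y3, and 3.74, 3.87 and 3.72 in Y3/CD103-/-. The 3 groups overlapped throughout; the differences were -0.02 (interval -0.43 to 0.39) and -0.06 (-0.47 to 0.35) from WT. This feature was near the median of its arrays, so its interval speaks for the feature's signal. Ldhb, the other subunit, averaged 5.06, 5.39 and 4.92, with a difference of -0.47 between Y3/CD103-/- and Y3 (-1.04 to 0.09). Slc16a1, the lactate carrier MCT1, had the widest spread of the 26: WT array 3 read 2.91 beside 4.27 and 4.41 on the other WT arrays, while the mutant arrays lay between 4.01 and 4.45. Slc16a3, the export carrier MCT4 and a HIF target, averaged 4.26, 4.42 and 4.29, all groups overlapping.

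The point where pyruvate enters mitochondria held the largest difference of the list, on 1 of the 2 features annotated with Pdk1. Pdk1 encodes the HIF-induced kinase that switches off pyruvate dehydrogenase; its promoter is among those printed. Its brighter feature read 4.90, 4.76 and 4.81 on the WT arrays, 5.36, 4.37 and 5.29 on the Y3 arrays, and 3.62, 4.16 and 4.02 on the Y3/CD103-/- arrays. All 3 Y3/CD103-/- values lay below all 6 others. The difference was -0.89 from WT (95% interval -1.45 to -0.33, 1.85-fold, unadjusted p = 0.00528, adjusted p = 0.155) and -1.07 from Y3 (-1.63 to -0.51, 2.10-fold, unadjusted p = 0.00155, adjusted p = 0.308), and neither passed. With the mean of the epithelial markers as a covariate these were -0.97 and -1.04.

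The second feature annotated with Pdk1 did not show this. It read 4.30, 4.16 and 4.43 in WT, 4.32, 4.60 and 4.27 in Y3, and 4.36, 4.22 and 4.24 in Y3/CD103-/-, overlapping in all groups. Its differences were -0.02 from WT (95% interval -0.36 to 0.32, adjusted p = 0.973) and -0.12 from Y3 (-0.46 to 0.22, adjusted p = 0.817), in a fit of 13561 single features chosen after the values were seen. The interval of the second feature in the comparison with WT ends at -0.36 on the low side, short of the -0.89 of the first. Which parts of the transcript the 2 features cover is not stated in the labels or the table, and where in the genome each maps was not examined. The value for Pdk1 thus depends on the feature, and the cause was not tested.

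Pdha1, the α subunit of pyruvate dehydrogenase that PDK1 phosphorylates, averaged 5.65, 5.86 and 5.53, and the Y3/CD103-/- arrays (5.40, 5.54 and 5.66) lay just below the Y3 arrays (6.19, 5.71 and 5.69). Mpc1, a subunit of the mitochondrial pyruvate carrier, had means of 4.88 ± 0.13 (WT), 5.27 ± 0.04 (Y3) and 5.06 ± 0.34 (Y3/CD103-/-; SD, n = 3 each). Its Y3 arrays lay above the WT arrays with a difference of 0.38 (-0.02 to 0.79, adjusted p = 0.315). A dimmer Mpc1 feature gave 0.40 in Y3 and -0.21 in Y3/CD103-/- against WT, where the brighter one gave 0.17.

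**Figure D3:**
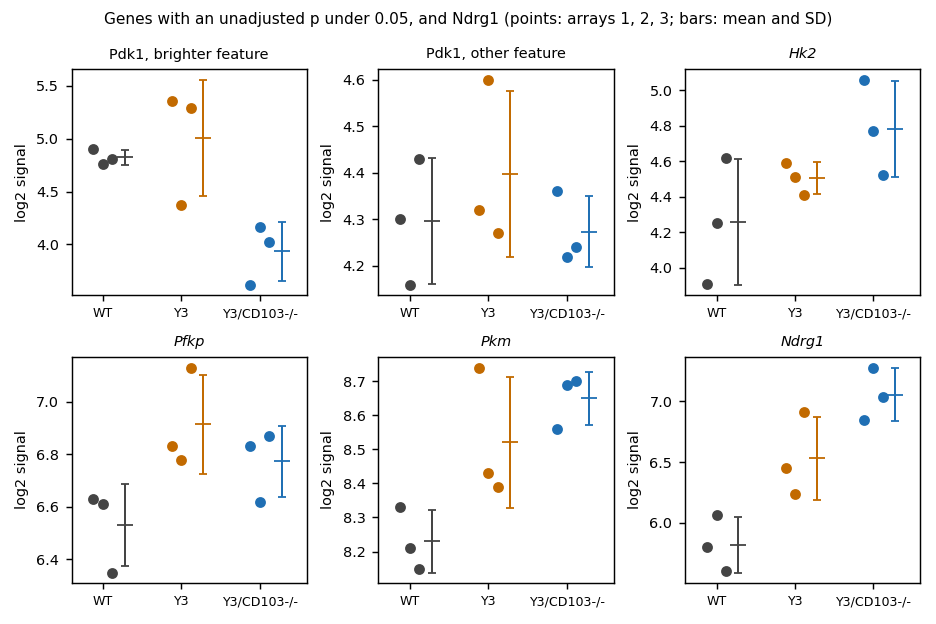
Log2 signal on each array for the 4 genes with an unadjusted p under 0.05 in any comparison, both Pdk1 features, and Ndrg1; points are arrays 1 to 3 of a group, bars are the mean and SD of 3 arrays, and each panel has its own axis, which does not start at 0. The brighter Pdk1 feature is low on all 3 Y3/CD103-/- arrays (3.62 to 4.16) while the other feature overlaps in all groups, and Ndrg1 lies highest in Y3/CD103-/- except for Y3 array 3.

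Hif1a transcript had the smallest spread between replicates of the 26 genes. It read 9.05, 9.13 and 9.19 in WT, 9.21, 9.17 and 9.23 in Y3, and 9.03, 9.14 and 9.12 in Y3/CD103-/- (pooled SD 0.0537, where the median of the 26 genes was 0.23). The differences were 0.08 in Y3 (95% interval -0.22 to 0.38; below 0 after centring) and -0.02 in Y3/CD103-/- (-0.32 to 0.27), and a dimmer feature gave 0.16 and -0.01. All Y3/CD103-/- arrays lay below all Y3 arrays, by 0.11 on average, a side that also changed with the scaling. Myc read 6.97, 6.82 and 6.89 in WT, 6.94, 6.75 and 6.89 in Y3, and 6.58, 6.68 and 6.94 in Y3/CD103-/-. Its groups overlapped, with differences from WT of -0.03 (-0.37 to 0.30) and -0.16 (-0.50 to 0.18).

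The genes that turn HIF-1α over gave no call either. Egln1, the main oxygen-sensing prolyl hydroxylase, averaged 6.11, 6.42 and 6.22. Egln3, a hydroxylase that HIF itself induces, averaged 5.83 ± 0.16, 5.49 ± 0.15 and 5.53 ± 0.31 (SD, n = 3), with every Y3 array below every WT array and a difference of -0.34 (interval -0.76 to 0.07, adjusted p = 0.374). Vhl, the ubiquitin ligase subunit, averaged 3.84, 4.12 and 4.17, and every Y3/CD103-/- array lay above every WT array (0.33, -0.08 to 0.74). P4ha1, the HIF-induced collagen prolyl hydroxylase, averaged 4.72, 5.15 and 4.83, with a difference of 0.43 in Y3 (-0.02 to 0.87, adjusted p = 0.309). The mitophagy gene Bnip3, another HIF target, read 2.41 to 2.92 in WT, 2.28 to 2.72 in Y3 and 2.42 to 3.18 in Y3/CD103-/-, near background.

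Groups that did not overlap were few. In Y3 against WT, 4 of 26 genes had all Y3 arrays higher (Pfkp, Pgk1, Pkm and Mpc1; 19.0% of all genes did) and Egln3 had all lower (4.93%). In Y3/CD103-/- against WT, 2 were higher (Pkm and Vhl; 10.7%) and 2 lower (Pfkfb3 and Pdk1; 6.68%). In Y3/CD103-/- against Y3, 0 were higher (4.11%) and 4 lower (Hk1, Pdk1, Pdha1 and Hif1a; 14.4%). The percentages are the background for each count. After centring, 1 was higher (8.36% of all genes) and 4 lower (11.0%) in Y3 against WT, 3 were higher (9.78%) and 3 lower (7.36%) in Y3/CD103-/- against WT, and 3 were higher (11.1%) and 1 lower (6.21%) in Y3/CD103-/- against Y3.

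Genes beside the 32 were read from lists of the same pathways. Among 24 tested genes that hypoxia induces, 1 passed in 1 comparison, Y3/CD103-/- against WT, where 0.836% of all genes did: Ndrg1, a stress-induced gene that HIF and other signals raise and that is known in T cells for its link to anergy. It read 5.80, 6.06 and 5.60 in WT, 6.45, 6.24 and 6.91 in Y3, and 6.85, 7.28 and 7.04 in Y3/CD103-/-. All arrays of both mutant groups lay above all WT arrays. Ndrg1 rose by 1.24 log2 ± 0.21 (SE) in Y3/CD103-/- (95% interval 0.77 to 1.70, 2.36-fold, adjusted p = 0.0258 in limma). The difference of 0.71 in Y3 (adjusted p = 0.143) and that of 0.53 between the mutant groups (adjusted p = 0.462) did not pass. The call held in 3 of 9 fits that left out 1 array; it was lost when WT array 1 or 3 (adjusted p = 0.0686 and 0.0797), array 1 of Y3 (0.0516), or Y3/CD103-/- array 1 (0.0508), 2 (0.0832) or 3 (0.0921) was left out, with the difference between 1.12 and 1.35 in all 9. With the replicate number as a block the adjusted p was 0.06 (pairing is not given in the labels), and with the epithelial marker mean as a covariate 0.111. In the RefSeq gene order of GRCm38.p6, Ndrg1 lies on the same chromosome as Il2rb, the gene of the receptor's β chain, with 148 protein-coding genes between. Myc, with no call, lies on it too, with 166 between, as does Pfkm, too dim for the test, with 237 between. What these positions do to the values was not tested.

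The median of the 24 hypoxia-induced genes was 0.12 in Y3 and 0.12 in Y3/CD103-/- against WT, beside 0.15 and 0.04 over all genes. Vegfa, the classic HIF target for vessel growth, averaged 4.09, 4.05 and 4.08. In the 13 tested genes of the HIF pathway 0 passed. Their median was 0.22 in Y3 and 0.25 in Y3/CD103-/- against WT, beside 0.15 and 0.04 over all genes. After centring these medians were 0.05 and 0.23, beside -0.02 and 0.02. Epas1, which encodes HIF-2α, averaged 7.65, 7.04 and 7.41 and differed by -0.61 in Y3 (interval -0.94 to -0.27, adjusted p = 0.0970). Siah2, a ligase that destroys the EGLN hydroxylases, differed by 0.60 in Y3 and 0.54 in Y3/CD103-/- (adjusted p = 0.118 and 0.177), and Arnt2, a HIF partner, by -0.44 and -0.69 (adjusted p = 0.281 and 0.147).

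The other metabolic lists held 0 calls in any comparison. Of 16 other glycolysis and gluconeogenesis genes, those of smallest p in limma were Pgm2 (0.58 in Y3, adjusted p = 0.183), Pgam2 (0.55, adjusted p = 0.237) and Pck2 (-0.53 in Y3/CD103-/- against Y3, adjusted p = 0.479). All WT arrays of Pgam2 (2.69, 2.34 and 3.17) lay below their medians, so it was tested only through arrays of the mutant groups. Of 7 other sugar and monocarboxylate carriers, Slc2a6 differed by 0.76 in Y3 (adjusted p = 0.172 in limma), Slc2a13 by -0.63 and Slc2a9 by -0.33 in Y3/CD103-/- against Y3. All Y3/CD103-/- arrays of Slc2a13 (3.07, 2.65 and 2.35) lay below their medians, so it was tested only through arrays of the other groups. The 7 carriers had a median of -0.29 in Y3/CD103-/- against Y3 (-0.10 over all genes), and of -0.14 (0.05) after centring. Of 11 other genes of pyruvate dehydrogenase and pyruvate, Pdp1, the phosphatase that opposes the PDK kinases, differed by 0.59 in Y3 (adjusted p = 0.191), Dlat by -0.49 in Y3/CD103-/- against Y3 and Pdk4 by -0.37 in Y3. Of 7 pentose phosphate genes, Prps2, which makes the ribose donor of nucleotides, differed by -0.82 in Y3/CD103-/- against WT (-1.24 to -0.40, adjusted p = 0.0801), Rpe by 0.61 in Y3 and Taldo1 by -0.33 in Y3/CD103-/- against WT. The 3 tested enterocyte isoforms, Pklr, Khk and Pck1, differed from WT by -0.37 to 0.31.

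The lists of upstream regulators held 0 calls as well. Of 16 genes of the MYC network 0 passed; Mxd1, an antagonist of MYC, averaged 8.44, 9.14 and 9.40, with a difference of 0.96 in Y3/CD103-/- (interval 0.52 to 1.39, adjusted p = 0.054) and 0.70 in Y3 (adjusted p = 0.126). Mlxipl, the glucose-responsive factor ChREBP, differed by -0.86 in Y3 (adjusted p = 0.0677 in limma). It read 3.94, 3.67 and 3.35 in WT and 2.79, 2.84 and 2.73 in Y3, where all arrays lay below their medians. Mlxipl thus entered the test mostly through the WT arrays, and its difference is limited by background. Cad, which starts pyrimidine synthesis, differed by 0.37 in Y3. Of 22 genes of PI3K, AKT, mTORC1 and AMPK signalling 0 passed. In Y3 19 of the 22 were higher (86.4%, where 70.5% of all genes were), with a median of 0.22 beside 0.15; after centring 13 were higher (59.1%, beside 47.3%), with a median of 0.05 beside -0.02. Sesn3, a restraint on mTORC1, differed by 0.62 and 0.61 from WT (adjusted p = 0.0891 and 0.0947). Stk11, the kinase LKB1 that activates AMPK, differed by 0.44 and 0.56, and Tsc2, which holds mTORC1 off, by 0.50 and 0.47.

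**Figure D4:**
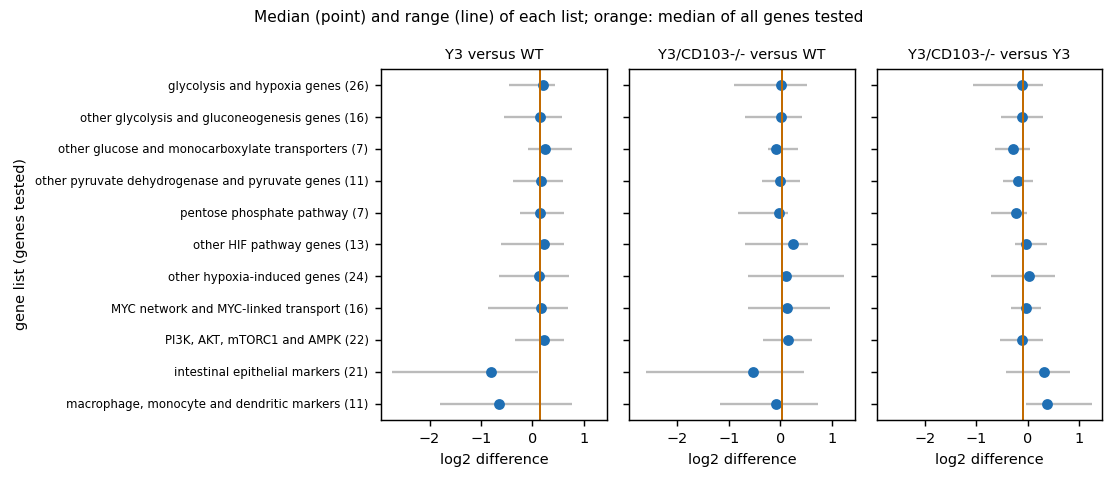
Median (point) and range (line) of the log2 differences of the genes of each list, number tested in brackets, in the 3 comparisons; the orange line is the median of all genes tested. Against WT the metabolic lists sit nearer the orange line than the epithelial list, which lies left of the line at -0.80 and -0.52. In Y3 the macrophage and dendritic list, at -0.66, also lies left of the line. The other HIF pathway genes are at 0.25 in Y3/CD103-/- against WT (0.04 over all genes). The other carriers are at -0.29 in Y3/CD103-/- against Y3 (-0.10 over all genes).

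Epithelial marker transcripts, and in Y3 also macrophage and dendritic ones, had larger median differences from WT than the glycolysis genes. In Y3/CD103-/- the macrophage and dendritic median was -0.09. Of 21 tested epithelial markers, 20 were lower in Y3 than in WT and 20 in Y3/CD103-/-, and 0 passed; the mean of the 26 measured markers ran from 4.35 to 5.40 on the WT arrays, 3.61 to 3.92 on the Y3 arrays and 3.64 to 4.69 on the Y3/CD103-/- arrays. Fabp2, an enterocyte fatty acid binding protein, differed by -2.74 and -2.60 from WT (adjusted p = 0.0557 and 0.0669), and Car1 by -2.31 and -1.48. Cdh1, which encodes E-cadherin, averaged 5.43, 4.43 and 4.98. The mean of 14 macrophage and dendritic markers ran from 4.14 to 4.84, 3.87 to 4.03 and 4.38 to 4.50. Of 11 tested, 10 were lower in Y3 than in WT, while 5 were higher and 6 lower in Y3/CD103-/-. H2-Aa fell by 1.80 in Y3 (adjusted p = 0.0264), a call lost with Y3 arrays 1 and 3 averaged (adjusted p = 0.121) and without WT array 2 (0.0731) or 3 (0.0779) or Y3 array 1 (0.124), 2 (0.0602) or 3 (0.122). Cd68, the lysosomal macrophage glycoprotein, went the other way: it averaged 5.40, 6.17 and 6.14, every array of both mutant groups lay above every WT array, and its differences of 0.77 and 0.74 did not pass (adjusted p = 0.0721 and 0.0801 in limma). Array signals have no true zero, so no marker could be read as absent. Epithelium and macrophages also express glycolytic genes, and fewer cells and less RNA per cell cannot be told apart. The part of these cells in the values above was not tested. With the epithelial marker mean as a covariate 0 of 26 genes passed in each comparison, as without it, and the medians were 0.15, 0.12 and -0.10. That covariate differs between the groups and holds no macrophage marker, so the fit cannot measure the part of either cell type.

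The remaining marker lists were small. Of the 6 Treg and T cell markers, Il2ra, the α chain of the IL-2 receptor, fell by 0.86 in Y3/CD103-/- against WT (adjusted p = 0.0258). With Y3 arrays 1 and 3 averaged the adjusted p was 0.0502. That call was kept without Y3 array 2 and lost when another array was left out (adjusted p between 0.0527 and 0.0809 in those 8 fits). Of 5 tested B and plasma cell markers 0 passed, with Jchain at -1.13 in Y3 (adjusted p = 0.206), Cd79a at -0.37 and Cd79b at 0.27. Of 3 CD8 and NK markers, 2 stromal and endothelial ones and 1 mast cell marker 0 passed. In Y3/CD103-/- against WT Cd8b1 differed by -0.62, Cd8a by 0.42, Ncr1 by -0.27, Col1a1 by 0.44, Pecam1 by -0.12 and Kit by 0.84 (adjusted p = 0.185 for Kit in limma). All WT arrays of Cd8a (3.05, 3.1 and 3) lay below their medians, so it was tested only through arrays of the mutant groups.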

How the data were processed

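Expression was measured on 9 arrays, 3 per group. The deposited values are log2 signals; per the submitters' processing notes the authors made them with RMA. The scale was read from the values (0.115 to 14.05). RMA's version and settings, the build behind the annotation and any hybridization batch are not stated in the labels. Differences of features near background are compressed on this scale.

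Of 39137 features, 23521 are annotated with 1 gene and 1814 with several; the brightest single-gene feature per gene was kept (22180 genes). Where in the genome a feature maps was not examined, so the brightest one need not lie at the gene itself. A gene was tested if it lay above its array's median on at least 3 of 9 arrays, which left 12792. Gene identifiers of 23328 single-gene features were found in the RefSeq table of GRCm38.p6, and 0 symbols changed. limma 3.58.1 in R 4.3.3 (lmFit, eBayes; group means of all 9 arrays, no block, 10.8 degrees of freedom) gave 2-sided p-values, adjusted by Benjamini-Hochberg within each comparison. No set test was run; a list is described by counts and medians. The fit was tested on simulated data. The number of arrays limits the precision: the median half-width of a 95% interval was 0.45 log2.

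The 32 genes and the 16 lists beside them were chosen with earlier results of these data known. Values per array are given for genes with an unadjusted p under 0.05 in any comparison and for the 3 brightest. They are also given for Hif1a, Myc, Slc2a1, Hk2, Ldha and Pdk1. From each further list, genes that passed or else up to 3 of smallest p are named. Foxp3, Vegfa, Cd68, Ikzf2, Ctla4, Cd3e and Cd4 were added after the values were seen. So were the arrays' readings of Pfkm, Bnip3, Slc16a1, Pdha1, Mlxipl, Pgam2, Slc2a13 and Cd8a. Alternatives changed the filter, the handling of several features, scaling, variance model, weights of arrays, the arrays fitted, the replicate block, the threshold and an epithelial covariate, averaged Y3 arrays 1 and 3, and left out each array. Same-numbered arrays did not deviate together (correlations -0.04 to 0.11), so the numbers were not taken to pair samples.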

Additional observations from a re-analysis of the deposited data

How the results depend on the processing

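Under all 21 alternatives, 9 of which left out 1 array, the number of genes of the list that passed was 0 in each of the 3 comparisons. Some came near the threshold: in Y3/CD103-/- against WT the smallest adjusted p in limma was 0.0562 for Pkm and 0.0657 for Pdk1. In Y3/CD103-/- against Y3 it was 0.0649 for Pdk1. The median difference of the genes in Y3 against WT, 0.20, was 0.06 after quantile normalization and 0.03 after centring, which also moved the median of all genes from 0.15 to 0.04 and -0.02; leaving out each array in turn gave 0.10 to 0.32. The median in Y3/CD103-/- against Y3, -0.12, was -0.01 after quantile normalization and 0.03 after centring, so its side changed; that in Y3/CD103-/- against WT, 0.01, lay between -0.05 (without WT array 1) and 0.12 (with the epithelial covariate). With the replicate number as a block 0 genes of the list passed in any comparison and the medians were 0.20, 0.01 and -0.12; over all genes the block gave 54, 55 and 1 calls, against 101, 107 and 1 without it. Counts over all genes, in the order Y3 against WT, Y3/CD103-/- against WT and Y3/CD103-/- against Y3, also moved with a trended robust variance (346, 309 and 10), with array weights (346, 60 and 9), with the epithelial covariate (3, 13 and 1), and with Y3 arrays 1 and 3 averaged (12, 62 and 1). Of the 3 named genes that passed, H2-Aa in Y3 had an adjusted p under 0.05 in 13 of 21 alternatives, Ndrg1 in Y3/CD103-/- in 10 and Il2ra in Y3/CD103-/- in 7; Il2ra in Y3, which did not pass, was under 0.05 in 5. The other Pdk1 feature, an alternative chosen after seeing the data, gave -0.02 and -0.12 in place of -0.89 and -1.07. Signal over background limits Pfkm and Bnip3, whose features lay below the median of the arrays, and Aldoc, Ldha and Vhl, which failed the stricter filter. It also limits Mlxipl, Pgam2, Slc2a13, Pck1 and Cd8a of the further lists. Their means over the arrays were 3.15, 3.06, 2.98, 3.14 and 3.23, within or below the range of the array medians (3.15 to 3.23).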
